A study of Mus musculus with 4 samples.

Results

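The genes described here carry lipid between cells as lipoproteins or move sterol across the cell membrane, and comprised 10 of the 54021 gene symbols in the count table: Apob, Apoe, Apoc1, Apod, Mttp, Lpl, Lcat, Pltp, Abca1 and Abcg1. They were listed by name as apolipoprotein, lipase and sterol transporter genes, and the list was chosen with the contrast of INK128 against Control in view, since Apob was among its largest falls. Their differences between these groups are therefore given as a description, and where the number of members called is stated beside the share of all genes, nothing is read from it. RNA-seq was performed on reconstituted ovaries (rOvaries), grafts made from E12.5 primordial germ cells and gonadal somatic cells of actin-GFP C57BL/6 fetuses and placed under the kidney capsule. The recipients of both groups were bilaterally ovariectomized young G2 Terc-/- females on the C57BL/6 background, which lack the telomerase RNA component, so no wild-type recipient entered the comparison. In the INK128 group, recipients were given INK128, an inhibitor of mTOR kinase, in their drinking water (0.75 uM per g in the labels), and the Control group received none. Grafts of both groups were collected 1 month after transplantation, with 2 libraries per group: INK128 replicates 1 and 2, and Control replicates 1 and 3. Nothing in the sources states that the libraries of a group came from separate recipients, so a p-value measures only the spread between these libraries.

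Lipoproteins are particles of triglyceride and cholesteryl ester held together by apolipoproteins. Apob is the structural protein of chylomicrons and very low density lipoprotein, is loaded with lipid by the protein encoded by Mttp, and is made chiefly by liver, intestine and yolk sac. Lpl releases fatty acids from the circulating particles, Lcat and Pltp remodel high density lipoprotein, and Abca1 and Abcg1 export cholesterol from cells to it. In the ovary, cholesterol delivered by lipoproteins is the substrate of steroid hormones in theca, granulosa and luteal cells.

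Counts summed to between 19130209 and 23029089 per library, and 3 counts corresponded to between 0.127 and 0.161 CPM (counts scaled to the size of the library), a floor that covers counting error only. The INK128 libraries resembled each other (Pearson r = 0.98 of log2 CPM across the 11758 genes with a mean CPM above 10, which are not independent replicates), and 1% of these genes differed between them by more than 2-fold. The Control libraries stood apart (r = 0.806), with 13.8% of genes differing by more than 2-fold. Control replicate 1 held 1021 counts of 4 Y-linked genes and Control replicate 3 none, against 2 and 0 in the INK128 libraries, although the recipients were female and the study's methods describe the donor gonads as female. Oocyte markers were low in Control replicate 3, with a summed level of 25.4 CPM against 760 CPM in Control replicate 1 and 1050 and 778 CPM in INK128 replicates 1 and 2. Values are therefore given for each library, and the largest differences also without each library in turn.

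In the edgeR fit, 375 of 11758 genes (3.19%) were called lower and 374 (3.18%) higher in INK128, with a called gene having a Benjamini-Hochberg adjusted p under 0.05 and differing by more than 1.5-fold. Of the 10 members, 6 had a mean CPM above 10 and were in this fit, and 1, Apob, was called lower and 0 higher. The filters used CPM without TMM factors, whereas the levels printed below are TMM-scaled. Apob passed with a mean of 10.04 unscaled CPM, only through its level in the Control libraries, and on the TMM-scaled values it would have fallen below the filter. Abcg1 also passed only through Control, with a mean of 9.56 CPM in INK128 and 20.6 CPM in Control. Apoc1, Apod, Mttp and Lcat, with a mean CPM of 10 or less, were read from a second edgeR fit on the 17631 genes with a mean CPM above 1, in which 0 genes (0.0%) were called in either direction. In that second fit, 5797 genes had an unadjusted p under 0.05, and DESeq2 on the same genes called 1791 higher and 2402 lower. With 2 libraries against 2, an exact permutation test of a single value cannot give a two-sided p below 0.333.

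The promoters of Apob, Apod, Abca1 and Mttp are shown because the first 3 were lower in both INK128 libraries than in both Control libraries and had a RefSeq promoter entry, while Mttp encodes the partner of Apob and its levels overlapped between the groups. Each window (RefSeq, build GRCm38.p6) runs 5′ to 3′ on the strand of the gene from 250 bases before the start site through 50 bases from it, and capitals mark matches to the motifs searched. Apob lies on the plus strand (chr12:7977427-7977726), Apod on the minus strand (chr16:31314759-31315058), Abca1 on the minus strand (chr4:53159846-53160145) and Mttp on the minus strand (chr3:138143369-138143668).
Apob: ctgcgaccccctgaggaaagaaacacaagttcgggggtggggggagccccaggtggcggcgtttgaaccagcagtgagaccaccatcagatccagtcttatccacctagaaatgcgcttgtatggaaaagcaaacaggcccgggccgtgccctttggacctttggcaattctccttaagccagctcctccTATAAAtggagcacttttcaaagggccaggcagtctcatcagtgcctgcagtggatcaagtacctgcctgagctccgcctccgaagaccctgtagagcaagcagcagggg
Apod: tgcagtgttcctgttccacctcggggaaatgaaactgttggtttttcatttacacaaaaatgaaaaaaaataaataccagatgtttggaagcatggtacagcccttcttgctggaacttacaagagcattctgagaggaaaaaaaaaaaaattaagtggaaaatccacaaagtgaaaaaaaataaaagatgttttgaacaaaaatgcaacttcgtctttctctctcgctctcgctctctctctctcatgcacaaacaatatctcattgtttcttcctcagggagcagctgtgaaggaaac
Abca1: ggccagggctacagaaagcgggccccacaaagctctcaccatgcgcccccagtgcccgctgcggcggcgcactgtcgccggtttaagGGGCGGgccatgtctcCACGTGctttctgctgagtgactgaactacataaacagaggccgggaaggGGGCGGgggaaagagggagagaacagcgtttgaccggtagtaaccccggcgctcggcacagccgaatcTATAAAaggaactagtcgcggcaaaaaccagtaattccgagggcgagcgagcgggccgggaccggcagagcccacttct
Mttp: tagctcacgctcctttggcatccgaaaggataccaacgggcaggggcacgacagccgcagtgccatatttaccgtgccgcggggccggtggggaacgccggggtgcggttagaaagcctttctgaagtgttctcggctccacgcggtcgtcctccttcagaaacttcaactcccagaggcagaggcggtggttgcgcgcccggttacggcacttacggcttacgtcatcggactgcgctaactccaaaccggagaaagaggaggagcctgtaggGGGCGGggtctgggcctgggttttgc

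The motifs were searched on both strands in the same windows: the TATA box (TATAAA), the GC box (GGGCGG), the nuclear receptor half-site (AGGTCA), a core bound by HNF4 (CAAAGTCCA), the E-box (CACGTG) and a sterol regulatory element (TCACNCCAC). Positions are counted from the RefSeq start sites, which need not be the GENCODE gene starts given below. Among the 4 windows shown, they differ for Apob and Mttp, and the Mttp window lies inside the GENCODE gene. The Apob window held a TATA box beginning 60 bases before the RefSeq start site, a match found in 13.6% of the 32851 mouse windows in the table. The Abca1 window held a TATA box at -29, GC boxes at -163 and -97 and an E-box at -147, and 35.7% of all windows held a GC box and 7.15% an E-box. Mttp held a GC box at 25 bases past the start site, and Apod had no match. These 4 windows had no match to the half-site, the HNF4 core or the sterol regulatory element, which occurred in 16.3%, 0.475% and 1.24% of all windows. The windows also differed in base composition, with GC contents of 37.3% for Apod, 56.7% for Apob, 62.0% for Mttp and 62.7% for Abca1, against a median of 52.7%. Of the other members, Pltp held a TATA box at 37 and a GC box on the opposite strand at -37, 1 of the 3 Apoe windows held TATA boxes at -100 (opposite strand) and -96, which overlap, and Lcat held none. In all, 7 members matched a promoter entry, with 9 windows. Only these exact letters were searched. A match describes letters in a window and does not show binding, and the lack of a match does not show that a site is absent.

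Apob showed the largest difference among the members. Its level was 0.429 and 0.276 CPM in INK128 replicates 1 and 2, from 8 and 6 counts, and 6.82 and 31.1 CPM in Control replicates 1 and 3, from 154 and 738 counts. Both INK128 libraries lay below both Control libraries, at a few counts above the floor, while the Control libraries themselves differed 4.56-fold. The log2 fold change of INK128 against Control was -5.74 ± 0.98 (SE, n = 2 per group), which is 53.3-fold lower. Without Control replicate 3, the library with the higher level, it was -4.27, and without Control replicate 1 it was -6.46. Without INK128 replicate 1 or replicate 2 it was -6.08 or -5.45, and in neither fit was Apob or any other gene called. In bulk tissue such as this, fewer cells of a type and less RNA per cell cannot be told apart. Apob lies at 7977648 to 8016835 on the plus strand of chromosome 12 (mm10, GENCODE), with a total exon length of 13934 bases.

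Mttp, the microsomal triglyceride transfer protein gene, did not separate the groups as Apob did. It measured 5.05 and 7.45 CPM in INK128 replicates 1 and 2 and 6.38 and 13.8 CPM in Control replicates 1 and 3. The groups overlapped, and Control replicate 3 alone was high. The log2 fold change was -0.64 ± 0.50, and it was 0.03 without Control replicate 3 and -1.09 without Control replicate 1. Mttp (chromosome 3, 138089854 to 138144968, minus strand) shares 7.36% of its exon bases with Trmt10a on the opposite strand, and the strand setting of the counting is not given in the sources used here, so reads in the overlap cannot be assigned to one gene with certainty.

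Apoe, the ligand that carries remnant and high density particles to receptors, had the highest level of the members per kilobase of exon and differed little between the groups. It measured 723 and 755 CPM in INK128 replicates 1 and 2 and 903 and 592 CPM in Control replicates 1 and 3, so that the INK128 libraries fell between the Control libraries. Its log2 fold change was -0.02 ± 0.26, and the sign changed, or the value rounded to 0, in 6 of 15 alternative fits. Apoe lies on the minus strand of chromosome 7 (19696109 to 19699188), 3448 bases from Apoc1 (19689481 to 19692660, minus strand), in a cluster that also holds Apoc4 and Apoc2. Of these neighbours, Apoc1 averaged 1.91 CPM over the 4 libraries, Apoc2 0.237 CPM and Apoc4 0.129 CPM.

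Apoc1, an inhibitor of lipoprotein uptake and an activator of Lcat, rested on 11 and 55 counts in INK128 replicates 1 and 2 and on 29 and 77 counts in Control replicates 1 and 3. In CPM these were 0.59, 2.53, 1.28 and 3.25, and the groups overlapped (log2 fold change -0.48 ± 0.92). Each pair of libraries spread widely, 4.28-fold within INK128 and 2.53-fold within Control. With this spread and 2 libraries per group, no difference was detectable. Without INK128 replicate 1 or 2 the log2 fold change was 0.20 or -1.89, and without Control replicate 1 or 3 it was -0.98 or 0.35.

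Apod, a lipocalin that binds arachidonic acid and steroids and is not a structural part of a lipoprotein core, was scarce but separated the groups. It had 8 and 6 counts (0.429 and 0.276 CPM) in INK128 replicates 1 and 2 and 44 and 30 counts (1.95 and 1.27 CPM) in Control replicates 1 and 3. Both INK128 libraries lay below both Control libraries, and the Control libraries differed 1.54-fold, less than those of Apob. With a log2 fold change of -2.12 ± 0.70, it was 4.35-fold lower in INK128, and the value ranged from -2.48 to -1.79 over 7 alternatives. Apod entered the fit on mean CPM above 1, at a mean of 1.008 unscaled CPM, only through the Control libraries, and on the TMM-scaled values it would have fallen below that filter. It lies on the minus strand of chromosome 16 at 31296192 to 31314808.

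**Figure D1:**
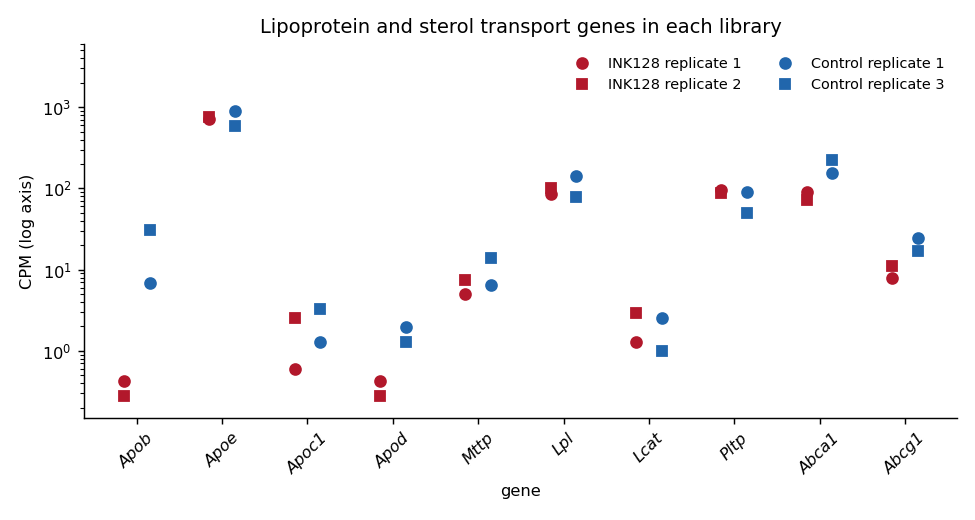
Level of each of the 10 genes in every library, in CPM on a log axis. Red symbols are INK128 replicates 1 (circle) and 2 (square) and blue symbols Control replicates 1 (circle) and 3 (square). Apob, Apod, Abca1 and Abcg1 have both red points below both blue points, and the other 6 genes overlap.

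Lpl, the lipase that hydrolyses triglyceride at the capillary wall, measured 85.9 and 100 CPM in INK128 replicates 1 and 2 and 141 and 78.0 CPM in Control replicates 1 and 3. The INK128 libraries lay between the Control libraries, and the log2 fold change was -0.24 ± 0.33. It was 0.25 without Control replicate 1 and -0.60 without Control replicate 3, so its direction depended on which Control library was used. Lpl lies on the plus strand of chromosome 8 at 68880491 to 68907448.

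Lcat, which esterifies cholesterol on high density lipoprotein, lies on the same chromosome (105939551 to 105943382, minus strand) and was near the lower filter. It had 1.29 and 2.90 CPM in INK128 replicates 1 and 2 and 2.57 and 1.01 CPM in Control replicates 1 and 3, from between 24 and 63 counts. The groups overlapped, with a log2 fold change of 0.28 ± 0.76, and no difference was detectable with the spread between 2 libraries per group. Without INK128 replicate 1 or 2 it was 0.73 or -0.44, and without Control replicate 1 or 3 it was 1.11 or -0.23.

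Pltp, which transfers phospholipid between particles, measured 94.4 and 87.6 CPM in INK128 replicates 1 and 2 and 91.0 and 50.4 CPM in Control replicates 1 and 3. Only Control replicate 3 was low, and the groups overlapped. Its log2 fold change was 0.36 ± 0.32, and it was 0.85 without Control replicate 1 and 0.00 without Control replicate 3. Pltp (chromosome 2, 164839518 to 164857711, minus strand) shares 19.3% of its exon bases with Ctsa on the opposite strand, so part of its count is uncertain in the same way as that of Mttp.

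The transporters Abca1 and Abcg1 were both lower in INK128. Abca1, which passes cholesterol and phospholipid to lipid-poor apolipoprotein A-I, measured 89.5 and 72.2 CPM in INK128 replicates 1 and 2 and 153 and 224 CPM in Control replicates 1 and 3. The groups did not overlap, and the Control libraries differed 1.46-fold. INK128 was 2.34-fold lower (log2 fold change -1.22 ± 0.26), and without each library in turn the value lay between -1.47 and -0.93. Abca1 lies on the minus strand of chromosome 4 at 53030787 to 53159895.

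Abcg1, which exports cholesterol to mature high density lipoprotein, measured 7.94 and 11.2 CPM in INK128 replicates 1 and 2 and 24.5 and 16.8 CPM in Control replicates 1 and 3. The groups did not overlap, though here Control replicate 1 was the higher one, whereas for Abca1 it was Control replicate 3. Abcg1 was 2.16-fold lower in INK128 (log2 fold change -1.11 ± 0.35), and without each library in turn the value lay between -1.39 and -0.81. Abcg1 lies on the plus strand of chromosome 17 at 31057675 to 31117988. In the edgeR fit on mean CPM above 10 neither transporter was called, whereas Abca1 was called lower with CPM above 10 in all libraries (-1.24), where Apob was not tested, and with at least 1 count (-1.18). DESeq2, which called 1772 genes (15.1%) lower and 1595 (13.6%) higher, called 3 members lower (Apob, Abca1 and Abcg1) and 0 higher.

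Across the members, 4 (Apob, Apod, Abca1 and Abcg1) were lower in both INK128 libraries than in both Control libraries, beside 35.3% of the genes with a mean CPM above 1. None was higher in both, beside 30.9% of those genes, and the other 6 overlapped. Because the members were chosen from this contrast, these shares are given without a reading. The median log2 fold change was -0.67 for the 6 members in the fit on mean CPM above 10, against -0.03 over all genes of that fit, and -0.56 for all 10 in the fit on mean CPM above 1, against -0.04.

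Levels of different genes were compared only per kilobase of exon (RPKM), averaged over the 4 libraries. Apoe was highest at 348 RPKM, followed by Pltp at 31.6, Abca1 at 13.0, Lpl at 9.68, Apoc1 at 2.57, Abcg1 at 2.07, Lcat at 1.45, Mttp at 1.32, Apob at 0.693 and Apod at 0.380 RPKM. Only 2 steps in this order exceeded the range over libraries. The lowest Apoe value, 277 RPKM, lay above the highest Pltp value, 36.9 RPKM, and the lowest Lpl value, 7.45 RPKM, lay above the highest Apoc1 value, 4.36 RPKM. All other neighbours overlapped. As a ratio of its highest to its lowest library, Apob had the widest range, from 0.0198 RPKM in INK128 replicate 2 to 2.23 RPKM in Control replicate 3, where it reached the same RPKM as Mttp (2.22).

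The difference between the groups varied with exon length across all genes. The tested genes were divided by exon length into 4 bins of like size. Their median log2 fold change was 0.56 for exon lengths of 57 to 2731 bases, 0.12 for 2732 to 4468 bases, -0.17 for 4470 to 6943 bases and -0.50 for 6945 to 123179 bases. Apob (13934 bases), Lpl (10478), Abca1 (10363) and Abcg1 (7298) belong to the longest bin. Apoe (2138) and Pltp (2562) belong to the shortest, within whose limits Apod (2577), Lcat (1342) and Apoc1 (744) also lie, and Mttp (6206) lies within those of the third.

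With offsets that remove the trend with exon length in each library, the 4 members that did not overlap kept their direction. The log2 fold change became -5.09 ± 0.90 for Apob, -2.39 ± 0.70 for Apod, -0.74 ± 0.23 for Abca1 and -0.82 ± 0.37 for Abcg1. The members near no difference shifted with their length. Apoe moved from -0.02 to -0.49, Lpl from -0.24 to 0.22, Pltp from 0.36 to 0.00 and Lcat from 0.28 to -0.16. Apoc1 became -0.97 and Mttp -0.44. In this fit edgeR called 0 of the 11758 genes, with 3133 at an unadjusted p under 0.05, whereas without the offsets edgeR called 374 higher and 375 lower and DESeq2 1595 and 1772. What gave rise to the trend with length was not tested.

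**Figure D2:**
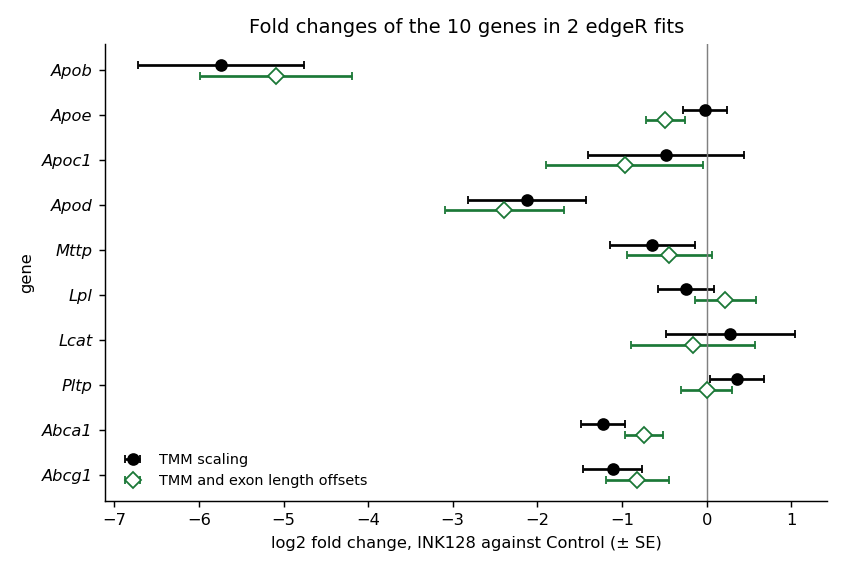
Log2 fold change of INK128 against Control for each member from edgeR, with TMM scaling alone (black circles) and with exon length offsets added (open green diamonds). Horizontal bars are ± 1 SE, with 2 libraries per group. Apob stays far to the left in both fits (-5.74 and -5.09), and Apoe moves from -0.02 to -0.49 with the offsets.

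**Figure D3:**
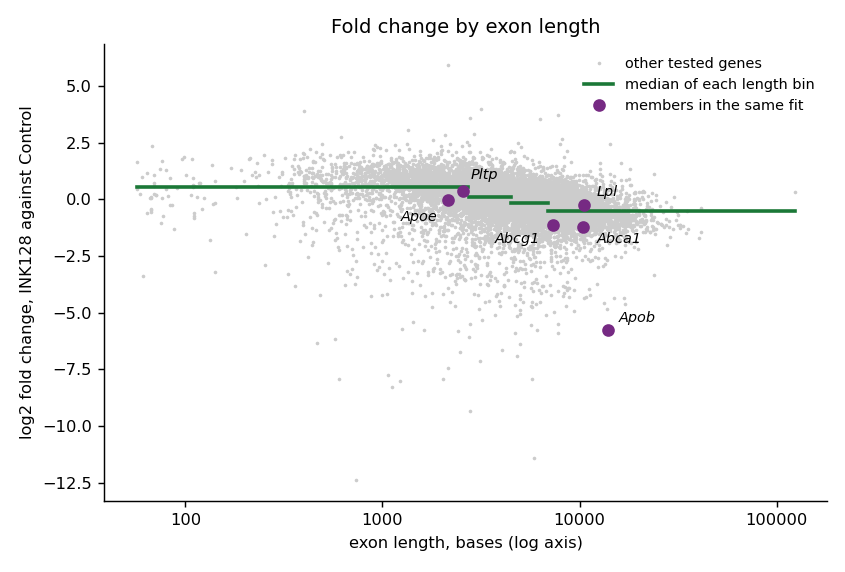
Log2 fold change of the 11700 tested genes with a known exon length (grey) against exon length in bases on a log axis, with the 6 members of the same fit in purple and the median of each of the 4 length bins as a green line. The green lines step down from 0.56 to -0.50 with length, and Apob lies far below the line of its bin.

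Genes of the same pathway outside the members were taken from 5 lists of 76 genes in all, of which 53 were in the edgeR fit. In it, 1 was called higher and 3 lower, beside 3.18% and 3.19% of all tested genes. DESeq2 called 2 higher and 11 lower, beside 13.6% and 15.1% of all tested genes. The 4 edgeR calls fell on the lipoprotein receptors and on the factors that modify lipases, and those of DESeq2 also on sterol transfer genes and regulators.

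Among the 14 of 16 lipoprotein receptors and adaptors that were tested, edgeR called 3 lower and 0 higher. An unadjusted p under 0.05 in edgeR was found for 6 of the 14, beside 4276 of all 11758 genes. The median log2 fold change was -1.10 against -0.03 over all genes, or -0.65 with exon length offsets. DESeq2 called 6 lower and 0 higher, adding Lsr, Sort1 and Pdzk1, which are named after their values were seen and had log2 fold changes of -2.82 ± 0.93, -2.48 ± 0.53 and -1.86 ± 0.43 in edgeR (adjusted p = 0.109, 0.0566 and 0.0621). Lrp2 (megalin), an endocytic receptor of absorptive epithelia, measured 3.06 and 4.14 CPM in INK128 replicates 1 and 2 and 51.1 and 97.7 CPM in Control replicates 1 and 3 (log2 fold change -4.37 ± 0.44, adjusted p = 0.0464). Cubn (cubilin), its partner in uptake of apolipoprotein A-I, had 0.805 and 1.33 CPM against 14.4 and 29.8 CPM in the same order (-4.35 ± 0.56, adjusted p = 0.0464). Lrp8, a receptor for Apoe and reelin, had 5.48 and 6.44 CPM against 187 and 57.6 CPM (-4.36 ± 0.66, adjusted p = 0.0464). Lrp2 and Cubn thus had the higher value in Control replicate 3, as Apob did, and Lrp8 in Control replicate 1. All 3 passed the filter on mean CPM only through the Control libraries, so a difference was needed for them to be tested. With the filter at a mean CPM above 1 the adjusted p was 0.0555 for each, and with at least 1 count it was 0.00026 for Lrp2, 0.0011 for Cubn and 0.000506 for Lrp8. With exon length offsets the log2 fold changes were -3.66, -3.69 and -3.91 in that order, with an adjusted p of 0.0724, 0.0761 and 0.0839. Without INK128 replicate 1 they were -4.18, -4.05 and -4.27 (adjusted p = 0.381 for each), and without INK128 replicate 2 they were -4.61, -4.77 and -4.50 (0.438). Without Control replicate 1 they were -4.75, -4.77 and -3.27, and without Control replicate 3 they were -3.82, -3.73 and -4.97. With a lone Control library, the spread between the Control libraries does not enter the fit.

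Of 12 lipases and lipoprotein-modifying factors, 8 were tested, 1 rose and 0 fell. An unadjusted p under 0.05 in edgeR was found for 5 of the 8, beside 4276 of all 11758 genes. The median log2 fold change was -0.27 (-0.32 with length offsets). Angptl4, a secreted inhibitor of Lpl, was the one that rose, from 50.1 and 54.7 CPM in Control replicates 1 and 3 to 240 and 241 CPM in INK128 replicates 1 and 2. Both pairs were tight, and the log2 fold change was 2.20 ± 0.17 (edgeR adjusted p = 0.0464) or 2.05 with length offsets (adjusted p = 0.0724). Without INK128 replicate 1 or 2 the log2 fold change remained 2.19, with an adjusted p of 0.381 or 0.438. Gpihbp1, the capillary anchor of Lpl, is named after its values were seen because it was the other gene of this list that DESeq2 called higher. It measured 26.5 and 26.2 CPM in INK128 replicates 1 and 2 and 7.13 and 11.3 CPM in Control replicates 1 and 3 (log2 fold change 1.52 ± 0.32, edgeR adjusted p = 0.0562). With a mean of 9.19 CPM in Control, Gpihbp1 passed the filter on mean CPM only through the INK128 libraries. Lipg (endothelial lipase), named on the same ground as the 1 gene of the list that DESeq2 called lower, had 11 and 13 CPM in INK128 and 17.9 and 130 CPM in Control (-2.62 ± 0.96, edgeR adjusted p = 0.128). Lpl itself overlapped between the groups, as given above. The genes of the list with the highest mean CPM besides Angptl4 are P4hb and Lipa, and neither passed. P4hb, the shared subunit of the Mttp complex, had a log2 fold change of 0.53 ± 0.22 (edgeR adjusted p = 0.155), and Lipa, the lysosomal acid lipase, had -1.12 ± 0.47 (edgeR adjusted p = 0.161). Lipa was -1.63 without Control replicate 1 and -0.31 without Control replicate 3, and P4hb was 0.34 and 0.75 in the same order.

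Only 3 of the 11 other apolipoproteins were expressed enough to be tested, and 0 were called by edgeR or DESeq2 (0 also at an unadjusted p under 0.05 in edgeR), with a median log2 fold change of -0.20 (-0.86 with length offsets). Clu (clusterin, apolipoprotein J) measured 952 and 1120 CPM in INK128 replicates 1 and 2 and 6270 and 951 CPM in Control replicates 1 and 3. Its log2 fold change of -1.80 ± 0.89 (edgeR adjusted p = 0.211) rested on Control replicate 1. Without that library it was 0.12, while without Control replicate 3 it was -2.60. Apoa4, a component of chylomicrons and high density lipoprotein, had 47.2 and 56.9 CPM in INK128 and 57.8 and 17.0 CPM in Control, and was 0.48 ± 0.59 on the log2 scale (edgeR adjusted p = 0.582). It was 1.61 without Control replicate 1 and -0.15 without Control replicate 3.

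None of the 16 tested genes of sterol export and intracellular transfer and none of the 12 tested regulators was called by edgeR, with 3 and 2 at an unadjusted p under 0.05, beside 4276 of all 11758 genes. DESeq2 called 2 of each lower, Abca2 and Star in the first list and Insig2 and Hnf4a in the second, of which Abca2 and Insig2 are named after their values were seen. The median log2 fold change was -0.51 for the first list (-0.36 with length offsets) and -0.20 for the second (0.00). Star, which delivers cholesterol to the mitochondrial enzyme of steroid synthesis, had 134 and 168 CPM in INK128 replicates 1 and 2 and 174 and 795 CPM in Control replicates 1 and 3. Its log2 fold change was -1.68 ± 0.74 (edgeR adjusted p = 0.176). It was -0.20 without Control replicate 3 and -2.39 without Control replicate 1. Soat1, which esterifies cholesterol for storage, was near 0 at -0.04 ± 0.22 (edgeR adjusted p = 0.912). Among the regulators, Nr5a2 (liver receptor homologue 1) had -0.15 ± 0.45 (edgeR adjusted p = 0.818) and Scap, the escort of the sterol-sensing transcription factors, had -0.45 ± 0.47 (edgeR adjusted p = 0.514). Without Control replicate 1 these were -0.66 and -0.98, and without Control replicate 3 they were 0.62 and 0.39. Hnf4a, a liver and kidney transcription factor that regulates Apob and Mttp, is named after its values were seen, being the regulator with the lowest fold change. It measured 0.644 and 1.98 CPM in INK128 replicates 1 and 2 and 20.7 and 74.2 CPM in Control replicates 1 and 3 (log2 fold change -5.16 ± 0.93, edgeR adjusted p = 0.0507), and did not pass. Like Lrp2, Cubn and Lrp8, it was in the fit only through the Control libraries.

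**Figure D4:**
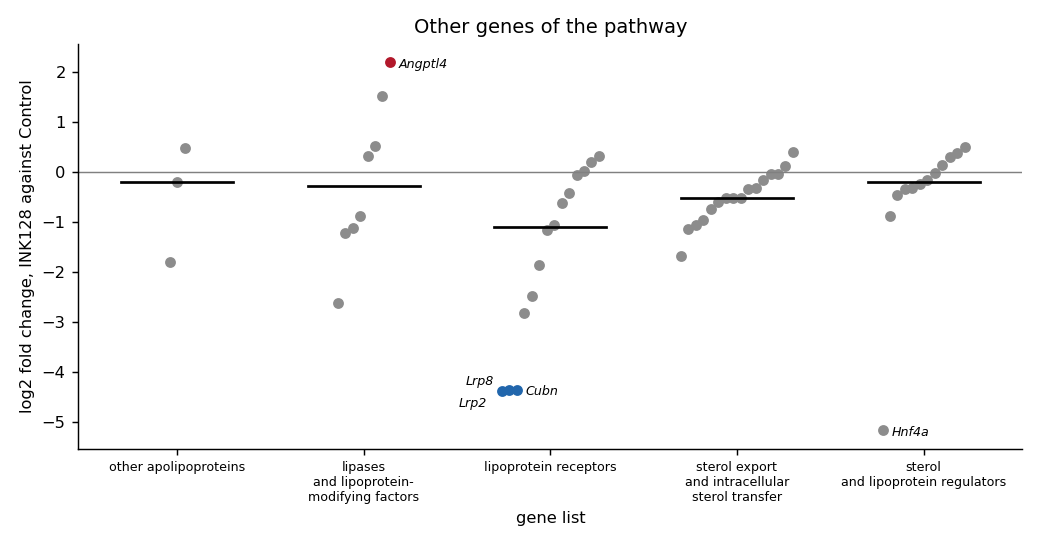
Log2 fold change of INK128 against Control for the 53 tested genes of the 5 pathway lists, 1 point per gene, with the median of each list as a black line. Red marks a gene called higher by edgeR (Angptl4), blue a gene called lower (Lrp2, Lrp8 and Cubn), and grey a gene not called, among them Hnf4a.

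The tested genes whose profile over the 4 libraries lay nearest to that of Apob, by Euclidean distance of log2(CPM + 0.5) centred on each gene's mean, were Gm42793, Hipk2, Gldc, Kcnj15 and Slc4a4. The distance was 0.27 for Gm42793 and 0.583 for Slc4a4, the fifth of them. The nearest was a gene model with 0.429 and 0.460 CPM in INK128 replicates 1 and 2 and 8.72 and 38.1 CPM in Control replicates 1 and 3. Gldc, the glycine cleavage decarboxylase, had 0.537 and 0.598 CPM against 8.23 and 54.3 CPM, and Slc4a4, a bicarbonate cotransporter, had 4.19 and 5.34 CPM against 31.6 and 159 CPM. The low INK128 levels and the higher level in Control replicate 3 than in Control replicate 1 follow from choosing these genes by their likeness to Apob. The pseudocount of 0.5 brings levels as low as those of Apob in INK128 closer together.

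Because the grafts lay on the kidney, markers of kidney and of other cell types were measured in the same libraries. All 18 markers of kidney tubule and podocyte were detected, and 16 were lower in both INK128 libraries than in both Control libraries, 1 was higher and 1 overlapped. Their summed level was 103 and 218 CPM in INK128 replicates 1 and 2 and 901 and 2060 CPM in Control replicates 1 and 3. The sum was 2.29-fold higher in Control replicate 3 than in Control replicate 1, the order that Apob also had. In INK128 the sum was 2.1-fold higher in replicate 2. Apob had 8 and 6 counts in INK128 replicates 1 and 2, too few to give an order. The log2 difference of the kidney sum was -3.18 beside -5.74 for Apob. Lrp2 and Cubn stand in this list as well as among the receptors. The part of kidney RNA in the differences of Apob, Lrp2, Cubn and Hnf4a was not tested.

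Markers of the cell types best known for Apob were uneven. Among 8 hepatocyte markers, 4 were lower in both INK128 libraries, 1 was higher and 3 overlapped, and the sum was 8.96 and 14.8 CPM in INK128 and 36.4 and 61.1 CPM in Control, mostly through Cyp2e1 (32.1 and 53.9 CPM in Control). The one that was higher in INK128 was Ahsg, at 6.44 and 8.60 CPM against 1.86 and 1.05 CPM. Alb, which defines hepatocytes, was at 0.268 and 0.138 CPM in INK128 replicates 1 and 2 and 0.930 and 1.56 CPM in Control replicates 1 and 3. Of 8 markers of intestinal and yolk sac endoderm, Fabp2 and Alpi were at 0 in all libraries, Afp did not exceed 5 counts, and 2 were lower, 0 higher and 6 overlapping. Vil1, a brush border protein, lay between 12.1 and 19.9 CPM and overlapped. The sum was 23.9 and 14.9 CPM in INK128 and 32.7 and 53.3 CPM in Control. Cubn stands in this list too, and without it the sums overlapped, at 23.1 and 13.5 CPM in INK128 and 18.3 and 23.5 CPM in Control.

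Macrophages, in which Abca1 and Abcg1 are well known, showed a smaller difference. Of 11 markers, 8 were lower in both INK128 libraries, 0 were higher and 3 overlapped, with none at 0. The sum was 450 and 418 CPM in INK128 replicates 1 and 2 and 680 and 788 CPM in Control replicates 1 and 3, a log2 difference of -0.76 beside -1.22 for Abca1 and -1.11 for Abcg1. The part of macrophage RNA in the differences of both transporters was not tested. Adipocytes are a usual source of Lpl, and of their 7 markers 2 were higher in both INK128 libraries, 1 was lower and 4 overlapped. The sum was 55.8 and 89.3 CPM in INK128 and 8.68 and 26.0 CPM in Control, almost all of it Plin1 (33.0 and 44.6 against 2.92 and 15.4 CPM) and Fabp4 (22.7 and 44.8 against 5.45 and 10 CPM). Among the defining markers, Lep was at 0 in all libraries and Adipoq and Cidec did not exceed 3 counts. Steroidogenic markers summed to 3890 and 5100 CPM in INK128 and to 781 and 10900 CPM in Control, so that the Control libraries lay on both sides of the INK128 libraries. Granulosa markers summed to 6100 and 7980 CPM in INK128 and to 2840 and 6200 CPM in Control. Within this list the Control libraries differed, with Amh levels of 435 and 5.10 CPM for replicates 1 and 3. Foxl2, which defines granulosa cells, was lowest in Control replicate 1 at 146 CPM. Control replicate 1 was also the library that held the Y-linked counts. Fibroblast markers were of like size in all libraries, between 11200 and 14400 CPM, and Schwann cell markers lay between 30.6 and 53.2 CPM.

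**Figure D5:**
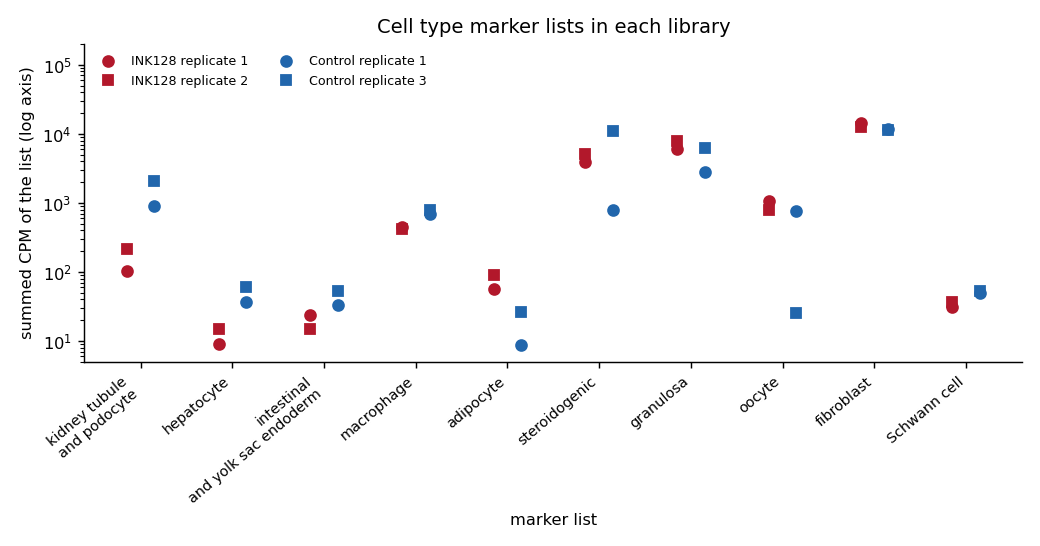
Summed level of each cell type marker list in every library, in CPM on a log axis, with red for INK128 and blue for Control (circle for replicate 1, square for INK128 replicate 2 and Control replicate 3). The kidney list separates the groups most among lists lower in INK128 (103 and 218 against 901 and 2060 CPM), and the oocyte and steroidogenic lists separate the Control libraries from each other.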

How the data were processed

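Per the study's methods, Trimmomatic was used for trimming, HISAT2 for alignment to mm10, and featureCounts for gene counts. Tool versions and the strand setting are not given in the sources used here. The authors deposited raw counts per gene symbol for 4 libraries, unnormalized and unpooled. The groups came from the labels.

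CPM were computed from these counts with TMM factors, and the filters on mean CPM used CPM without them. The test was the quasi-likelihood F-test of edgeR 4.0.16 (R 4.3.3), adjusted over all genes of the fit, and each standard error is the absolute log2 fold change divided by the square root of F. Alternatives were DESeq2 1.42.0, limma 3.58.1 (voom), other scalings, filters, exon length and GC offsets, and leaving out each library. DESeq2 on genes with a mean CPM above 1 was added after seeing the data. The procedure was tested on simulated data. Of 54021 symbols, 53447 matched GENCODE annotation of mm10, which gave positions and exon lengths.

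The members and lists were chosen with earlier results of these data known. Named genes were the 10 members, in each pathway list up to 4 called genes with the largest absolute log2 fold change (where fewer than 2 were called, also the 2 tested genes with the highest mean CPM), and the 5 genes nearest to Apob in profile. Exceptions are marked in the text. Promoter windows came from RefSeq, matched by symbol.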

Additional observations from a re-analysis of the deposited data

How the results depend on the processing

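The direction of Apob, Apod, Abca1 and Abcg1 was the same in every alternative that gave a value. The log2 fold change ran from -6.46 to -4.27 for Apob and from -2.48 to -1.79 for Apod. For Abca1 it ran from -1.47 to -0.74 and for Abcg1 from -1.39 to -0.81. The groups of these 4 members do not overlap, so leaving out 1 library could hardly turn their sign, and nothing is read from this agreement. The direction of the other 6 members, whose groups overlap, changed, or the value rounded to 0, in 1 to 6 alternatives each. The numbers of genes called depended strongly on the setting, and the cause was not tested. Against 374 genes up and 375 down, edgeR called 0 and 0 with a mean CPM above 1, with exon length offsets and with GC content offsets, as did limma voom, which had 3979 genes at an unadjusted p under 0.05. It called 803 up and 717 down with CPM above 10 in all libraries, and 1152 and 1953 with at least 1 count. DESeq2 called 1595 and 1772. Upper quartile factors gave 567 up, and library totals gave 580 down against 290 up and moved the median of all tested genes from -0.03 to -0.15. Members called down numbered 0 with a mean CPM above 1, limma voom, length offsets and GC offsets, 2 with at least 1 count and 3 with DESeq2, and the 1 called with CPM above 10 in all libraries was Abca1 in place of Apob. Pathway genes called numbered 0 up and 0 down with a mean CPM above 1, limma voom, length offsets and GC offsets, 2 and 13 with at least 1 count, and 2 and 11 with DESeq2. Leaving out 1 library gave 0 to 2664 genes up and 0 to 2723 down, 0 to 1 members up (Pltp, without Control replicate 1) and 0 to 4 down (Apob, Abca1, Abcg1 and Lpl, without Control replicate 3), and 0 to 10 pathway genes up and 0 to 26 down. All of the zeros among genes came from leaving out INK128 replicate 1 or 2. Without Control replicate 1 there were 2664 genes up and 2723 down, and without Control replicate 3 there were 2493 and 2518. The counts from leaving out 1 library cover only genes with a mean CPM above 10, and so only 6 of the 10 members. Apoc1, Apod, Mttp and Lcat, read from the fits on mean CPM above 1, are not in them. In all fits without 1 library, the lone library of a group is assumed to vary like the other group. With the median transcript length in place of the exon length, mean levels were 910 RPKM for Apoe, 71.5 for Pltp, 41.8 for Lpl, 24.4 for Abca1, 13.9 for Abcg1, 4.96 for Apoc1, 2.66 for Mttp, 1.45 for Lcat, 1.40 for Apod and 1.24 for Apob, so that Lpl stood above Abca1, Abcg1 above Apoc1, Mttp above Lcat and Apod above Apob. As a median of log2 CPM in place of a sum, the difference of the marker lists was -0.72 for hepatocyte, -0.28 for intestinal and yolk sac endoderm and -0.42 for adipocyte, where the sum gave 2.23. Among named pathway genes that were not called, the sign turned on leaving out 1 library for Apoa4 (-0.15 without Control replicate 3, 1.61 without Control replicate 1), Nr5a2 (0.62 and -0.66), Scap (0.39 and -0.98), Soat1 (0.16 and -0.21, and 0.06 without INK128 replicate 2) and Clu (-2.60 and 0.12). It also turned with exon length offsets for Apoa4 (-0.06), Nr5a2 (0.01) and Soat1 (0.41), and for Soat1 with GC offsets (0.10), upper quartile factors (0.03), a mean CPM above 1 (0.02) and at least 1 count (0.01). No paired analysis was possible because the groups share only replicate number 1. Apob, Apod, Apoc1, Mttp and Lcat rest on fewer than 100 counts in at least 1 library, which limits their precision.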
